A study of Mus musculus with 2 samples.

Results

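The cells described here were primary costal chondrocytes with a high level of Acta2, Grem1, Eln, Aoc2 and Prune2. Each barcode of the primary library was given a score, the summed UMIs (unique molecular identifiers, each counting 1 captured transcript) of these 5 genes divided by all UMIs of the barcode, and the barcodes in the top 10% were taken. They were 1083 of 10829 scored barcodes and of the 22694 barcodes deposited for both libraries of the series. The comparison group was the other 9746 scored barcodes. The members were therefore selected on measured values, and every difference from the other cells is given as a description without a test.

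Costal-cartilage-derived stem cells (CDSCs) came from rib cartilage of newborn C57BL/6J mice that were CD45.1 or ZsGreen, and were sorted as CD45- and CD51+. The study set 1 primary library beside 1 library of CDSCs cultured to passages 2 to 3, with no treatment other than culture. How many animals were pooled for a library was not given in the sources used here. The tissue was labelled as bone marrow, whereas the cells expressed a cartilage programme.

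Alpha smooth muscle actin, encoded by Acta2, is a contractile filament protein of vascular smooth muscle, pericytes and myofibroblasts. Grem1 encodes gremlin 1, a secreted antagonist that binds bone morphogenetic proteins (BMPs), and has been used as a marker of skeletal stem cells. Eln encodes tropoelastin, which lysyl oxidases cross-link on a fibrillin scaffold into elastic fibres, and Aoc2 encodes a copper-containing amine oxidase. Chondrocytes make an extracellular matrix of type II collagen and aggrecan under the control of Sox9, and BMP signalling promotes their differentiation.

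The promoters of the score genes were examined for letters that contractile genes are known for, the CArG box bound by serum response factor and the MCAT element bound by TEAD factors. RefSeq promoter sequences (GRCm38.p6) were found for 4 of the 5 genes, and Eln had no entry. A CArG box, with at most 1 base of its A and T core replaced, was found within 250 bases before the start of Acta2 at 2 positions and of Prune2 at 1 position. The same search matched 8.59% of 32851 promoters, and a CArG box with no mismatch, as in Prune2, was in 1.47%. The MCAT element CATTCC, searched on both strands, was found once each in Acta2 and Aoc2 and in 12.6% of promoters, and no match to either motif was found in Grem1. The 30 bases around each match are shown on the gene's strand, with the motif in capitals. They are shown because Acta2 shared the CArG box with Prune2 and the MCAT element with Aoc2. The MCAT match of Acta2 is on the opposite strand and is printed as its reverse complement. The 3 Acta2 windows are at chr19:34255438-34255467, chr19:34255388-34255417 and chr19:34255502-34255531. These windows lie inside the GENCODE M21 bounds of Acta2, which reach further upstream than the RefSeq start used here. The Prune2 window is chr19:16956028-16956057 and the Aoc2 window is chr11:101324994-101325023.
Acta2, CArG box 84 to 75 bases before the start: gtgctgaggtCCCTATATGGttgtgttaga
Acta2, CArG box 34 to 25 bases before the start: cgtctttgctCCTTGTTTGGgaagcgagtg
Acta2, MCAT element 146 to 141 bases before the start: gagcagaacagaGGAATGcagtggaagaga
Prune2, CArG box 80 to 71 bases before the start: cacccactttCCTTATTAGGacagagtcgg
Aoc2, MCAT element 57 to 52 bases before the start: tggagtttagtcCATTCCtctccatcatcc
A match describes the letters and is not evidence that the factor was bound.

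The members had a median of 14068 UMIs and the other cells of 10032, and the medians of detected genes were 3548 and 2940. After each barcode had been thinned to 5000 UMIs the medians were 1913 and 1923 genes. The median mitochondrial share was 1.62% in the members and 1.84% in the other cells. The libraries shared 32 barcode sequences, of which 2 belonged to members. A count of 3 corresponded to 0.175 CPM (counts of the summed cells scaled to a common total of UMIs) in the members. With 1 primary library there were no replicates. The intervals below are exact 95% intervals that cover counting error alone, without the spread between animals or libraries.

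The members had the transcripts of chondrocytes. Col2a1, the type II collagen gene, was detected in 100% of them at 69729 CPM, against 51540 CPM in the other cells. Acan, encoding aggrecan, was at 2632 against 1878 CPM, and Sox9 was at 1407 against 1315 CPM with detection in 99.6% of members. Itgav, which encodes the CD51 used in the sort, was at 82.9 against 92.5 CPM, and Ptprc, which encodes CD45, was at 0.524 against 0.638 CPM. The ZsGreen transcript was at 458 against 444 CPM. It was detected in 97.9% of members and 94.0% of the other cells, so ZsGreen mice were among the donors of this library.

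Markers of other cells were few. At least 3 markers of another cell type were detected in 13 of the 1083 members (1.20%) and in 89 of the other cells (0.913%). These counts were taken without thinning, at medians of 14068 UMIs in the members and 10032 in the other cells, so detection was easier in the members. At least 3 mural markers, those of smooth muscle and pericytes, were detected in 3 members (0.277%) and 3 of the other cells (0.0308%). These 3 members gave 2.45% of the members' Acta2 UMIs. The 8 mural markers summed to 17.9 CPM in the members and 21.0 CPM in the other cells, of which Pdgfrb made up 10.8 and 17.6 CPM. Their defining gene Rgs5 was at 0.815 against 0.690 CPM. Myh11, the smooth muscle myosin, was at 3.67 against 0.673 CPM. The 8 endothelial markers summed to 15.5 against 10.7 CPM, the 9 haematopoietic markers to 5.24 against 15.3 CPM with 2 of them at 0 in the members, and the 6 erythroid markers to 1.05 against 5.82 CPM with 1 at 0. The 5 tenocyte markers summed to 26.0 against 47.5 CPM. The 8 skeletal muscle markers summed to 665 against 261 CPM, of which Tnnt3 made up 620 and 249 CPM, while 2 of the 8 had no UMI in the members. Of the genes on these lists with at least 10 CPM, Pdgfrb of the mural and Scx of the tenocyte list were at least 1.5-fold lower, Acta1 and Tnnt3 of the skeletal muscle list higher, and the single Schwann cell gene neither, and no endothelial, haematopoietic or erythroid gene had 10 CPM.

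The score fell off without a gap between the groups. Its median was 0.194% of UMIs in the members and 0.0176% in the other cells. The last member inside the threshold had 0.128137% and the first cell outside had 0.128113%. The 100 members nearest the threshold had 266 CPM of Acta2, 315 CPM of Eln and 471 CPM of Prune2, and the 100 other cells nearest to it had 364, 268 and 391.8 CPM. Of the other cells, 2450 (25.1%) had no UMI of any of the 5 genes. The members are therefore the upper end of a continuous range.

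**Figure D1:**
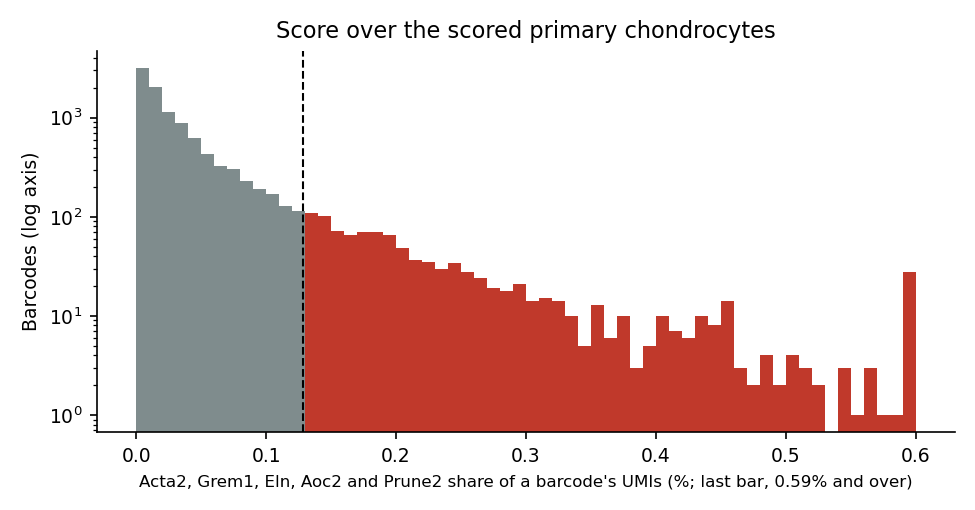
Number of scored primary barcodes (log axis) by the share of their UMIs that came from the 5 score genes, in percent, with cells of 0.59% and over in the last bar. The dashed line marks the threshold near 0.128%, the bars to its right (red) hold members, and the counts decline across it without a break.

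The 5 genes chose the cells, so their levels describe the selection. Acta2 (chr19:34241090-34255590, GENCODE M21 on GRCm38) was at 642 CPM in the members (interval 630 to 654) and 49.95 CPM in the other cells (48.7 to 51.3), with a log2 ratio of 3.68. Its level varied widely over member cells, with quartiles of 47.3 and 1063 CPM around a median of 331 CPM, and the highest member cell had 26915 CPM. Eln (chr5:134702593-134747323) was at 786 against 114 CPM, a log2 ratio of 2.79, with a median member cell at 387 CPM. Aoc2 (chr11:101325063-101329702) was at 275 against 31.1 CPM, a log2 ratio of 3.14. Prune2 (chr19:16956118-17223932) was at 509 against 113 CPM, a log2 ratio of 2.17, and was detected in 93.3% of members. Grem1 (chr2:113746164-113758646) was at 108 against 19.0 CPM, a log2 ratio of 2.50, and its median member cell had no Grem1 UMI.

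Most members carried several of the genes. Since the summed UMIs of these genes chose the members, the counts below also describe the selection. They were taken without thinning, at medians of 14068 UMIs in the members and 10032 in the other cells. At least 3 of the 5 were detected in 950 members (87.7%) and in 1902 other cells (19.5%), and all 5 in 259 members (23.9%) and 134 other cells (1.37%). Eln contributed 33.9% of the members' score UMIs, Acta2 27.7%, Prune2 21.9%, Aoc2 11.8% and Grem1 4.65%. The UMIs were unevenly spread over members, since the 10% of members with most of a gene held 39.2% of the Acta2 UMIs, 51.5% of the Grem1 UMIs and 30.9% of the Prune2 UMIs.

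To see whether the genes went together when a gene did not choose the cells, each was left out of the score in turn. The 5 genes had been put together with earlier results of this library known, so the values describe their co-occurrence and are no independent evidence of it. Aoc2 was at 192 CPM in the top 10% of cells by the other 4 genes and at 43.3 CPM in the remaining cells, a 4.44-fold difference. Grem1 was 4.27-fold higher in this way (91.6 against 21.4 CPM), Acta2 3.42-fold (330 against 96.5 CPM), Eln 3.11-fold (492 against 158 CPM) and Prune2 2.89-fold (384 against 133 CPM). The cells chosen without a gene shared from 75.5% (without Acta2) to 95.3% (without Grem1) of their barcodes with the members. Cell by cell the association was weak. Pearson correlations of UMI shares between pairs of the genes over 10829 cells ran from 0.07 for Acta2 with Grem1 to 0.275 for Aoc2 with Prune2, over cells of 1 library that share its depth range. These pairwise values are too low, in counts this sparse, to be read as a finding.

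Shares of cells with a transcript were compared at an equal depth of 5000 UMIs. For the score genes, the higher shares in members follow from the selection on these UMIs, also after thinning. Acta2 was detected in 63.3% of members, 11.1% of the other cells and 10.7% of 28 barcodes with endothelial or haematopoietic markers, which had a median of 12703 UMIs before thinning. For Aoc2 these shares were 51.5%, 9.09% and 7.14%, and for Grem1 they were 27.2%, 6.09% and 7.14%. The 28 barcodes gave 3, 2 and 2 cells with a UMI, with upper bounds of 28.2% for Acta2 and 23.5% for Aoc2 and Grem1, so the background is known only coarsely. They were not a separate group either, since 2 of them were members and the rest were among the other cells. These 2 members held 0.518% of the members' Eln UMIs and none of their Acta2, Grem1, Aoc2 or Prune2 UMIs. The summed levels outside the members were not low throughout, since the ninth decile of cells by score had 197 CPM of Acta2, 105 CPM of Aoc2 and 50.9 CPM of Grem1. Eln was detected in 73.9% of members, 34.0% of other cells and 14 of the 28 barcodes, and Prune2 in 79.2%, 28.0% and 14.3%. Before thinning, Acta2 was detected in 76.3% of members and 19.3% of the other cells.

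The members were not uniform. By the score gene with most UMIs, 375 were led by Acta2, 370 by Eln, 215 by Prune2, 111 by Aoc2 and 12 by Grem1. The Acta2-led members had 1512 CPM of Acta2, and Eln-led members had 217 CPM, which was still above the 49.95 CPM of the other cells. Among the 4 groups of more than 100 cells, Tagln and Myl9 were highest in the Acta2-led members. Tagln, encoding the actin-binding protein transgelin, was at 153 CPM in Acta2-led members, from 65.0 to 78.2 CPM in the Eln-led, Prune2-led and Aoc2-led members and at 29.6 CPM in the other cells. Acta1, the skeletal muscle actin, was at 43.8 CPM over all members and 11.4 CPM in the other cells, with detection in 8.77% and 2.94% without thinning. It was at 62.4 CPM in Acta2-led and 5.50 CPM in Aoc2-led members. Tnnt3, encoding troponin T of fast skeletal muscle, was between 601 and 702 CPM in all 5 groups, so that its level did not follow the leading gene. Clu, encoding the secreted chaperone clusterin, was between 83.7 and 199 CPM in the 4 larger groups and at 639 CPM in the 12 Grem1-led cells, against 637 CPM in the other cells.

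**Figure D2:**
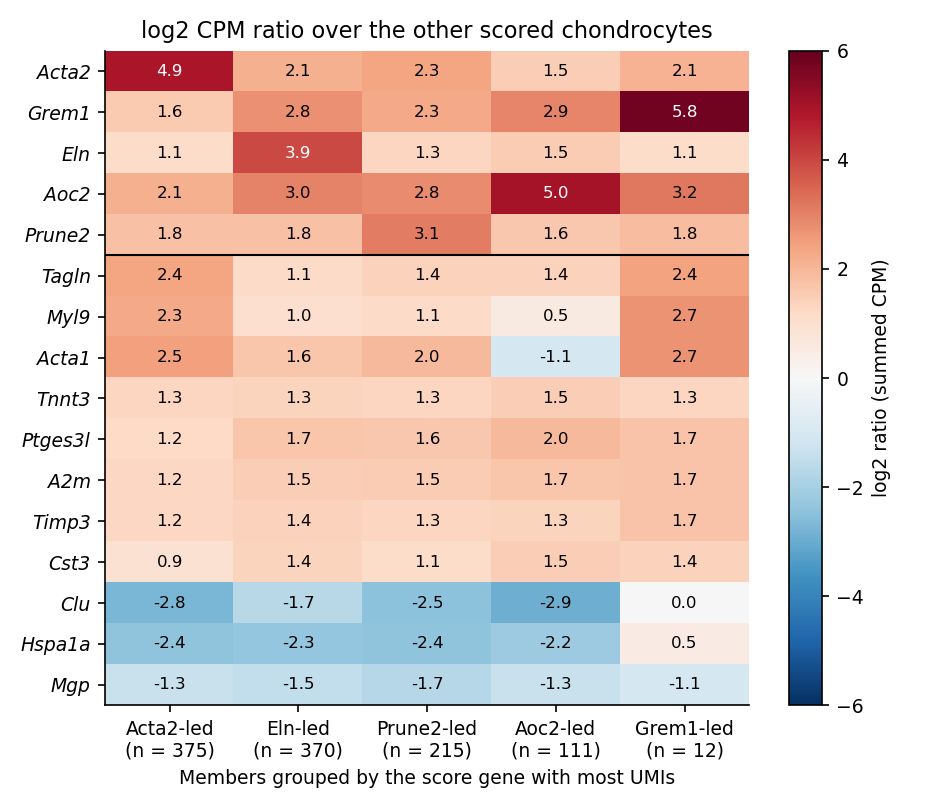
Log2 ratio of summed CPM over the other scored chondrocytes for 16 genes (rows; the 5 above the line make up the score) in members grouped by the score gene with most UMIs (columns, with the number of cells). The Acta2-led column has the highest ratios of Tagln and Myl9 among the 4 groups of more than 100 cells, Tnnt3 is alike across the columns, and Clu is below 0 in all but the 12 Grem1-led cells.

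Over all 7630 genes with at least 10 CPM in the scored cells, 268 were at least 1.5-fold higher in the members (3.51%) and 498 at least 1.5-fold lower (6.53%), with a median log2 ratio of -0.06. These shares are the background for the gene groups below, and since the same cells were used to choose the members, nothing is read from them alone. The genes named next had at least 50 CPM, without the score genes and mitochondrial and ribosomal protein genes. The 15 highest had log2 ratios from 1.09 to 1.56 and the 15 lowest from -1.60 to -2.28.

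The 15 highest genes included inhibitors of proteases. A2m, encoding the broad protease inhibitor alpha-2-macroglobulin, was at 415 against 154 CPM, with medians of 375 CPM in member cells and 67.3 CPM in other cells. Timp3 and Timp1, inhibitors of metalloproteinases, were at 522 against 211 CPM and at 550 against 239 CPM. Timp1 was detected in 94.5% of members, whereas Timp3 was detected in 55.6%, with a highest cell of 8158 CPM. Cst3, encoding cystatin C, an inhibitor of cysteine proteases, was the most abundant of the 15, at 4528 CPM (4497 to 4560) against 1994 CPM (1986 to 2002). Secreted or membrane enzymes were Enpp2, the autotaxin that makes lysophosphatidic acid (148 against 51.2 CPM), Cpm, carboxypeptidase M (160 against 71.3 CPM), Smpd3, a neutral sphingomyelinase (98.97 against 45.6 CPM), and F13a1, the A chain of the transglutaminase factor XIII (116 against 54.3 CPM).

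The largest log2 ratio of these 15 genes, 1.56, was that of Ptges3l, at 201 against 68.1 CPM. It was detected in 82.5% of members and 39.8% of the other cells. Tnnt3 had 620 against 249 CPM, and the cytokine Mif 491 against 213 CPM. Ppa1, a pyrophosphatase, was at 943 against 412 CPM, while its median member cell had 184 CPM and the upper quartile of member cells was 396 CPM. The rest were G0s2, an inhibitor of lipolysis (255 against 113 CPM), the histone gene H2bc4 (216 against 100.4 CPM) and Nckap5 (340 against 159 CPM).

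The 15 lowest genes held stress, signalling and matrix genes. The inducible heat shock genes Hspa1a (60.3 against 292 CPM) and Hspa1b (30.5 against 126 CPM), which are near-identical copies whose reads may be split uncertainly, and Hsph1 (44.9 against 185 CPM) were among the lowest. Clu was at 139 CPM (134 to 145) against 637 CPM (632 to 641). Cytl1, a cartilage cytokine-like protein, was at 230 against 755 CPM, and Prelp, a small leucine-rich proteoglycan, at 79.6 against 245 CPM. Bmp2, a BMP ligand, was at 37.3 against 122 CPM and Spp1, osteopontin, at 17.98 against 56.9 CPM. Cdkn1c, the cell cycle inhibitor p57, was at 209 against 636 CPM and Plcb1, a phospholipase C, at 381 against 1156 CPM. Ppargc1a, a coactivator of mitochondrial genes, was at 19.96 against 92.2 CPM. The others were Arhgap6, Cadm1, Sorbs2 and Pde10a, between 16.9 and 52.8 CPM in the members.

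**Figure D3:**
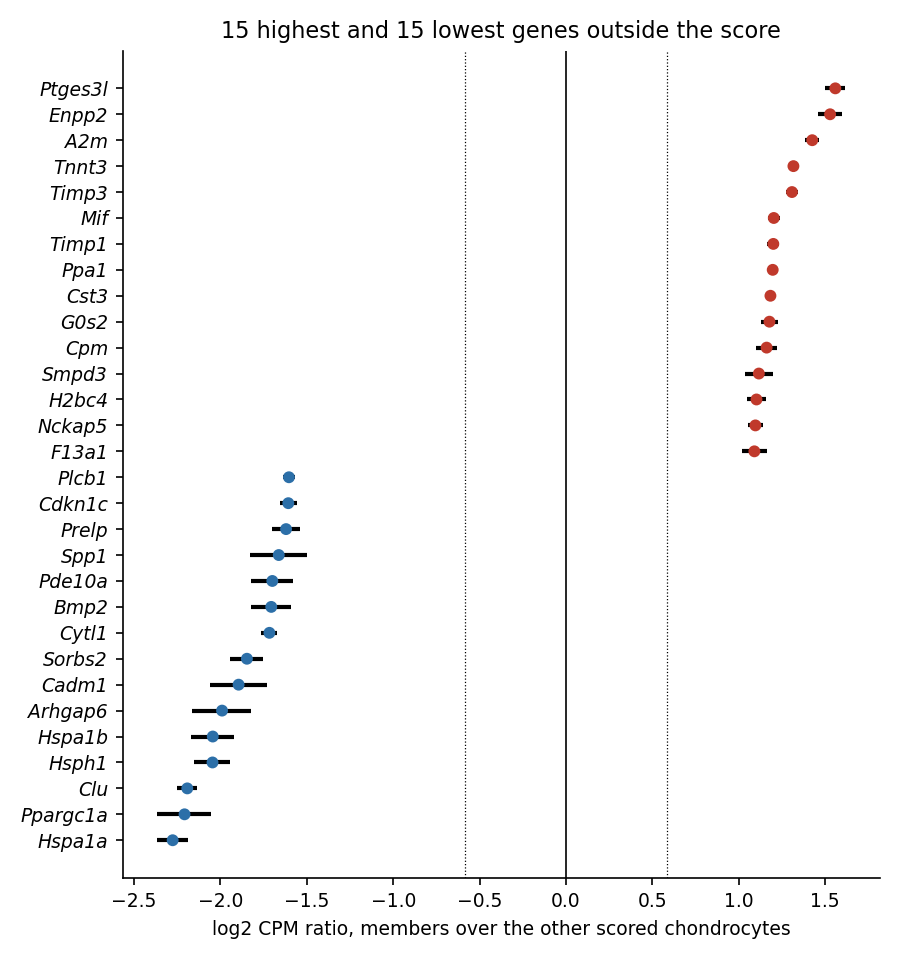
Log2 ratio of CPM in the members over the other scored chondrocytes for the 15 highest and 15 lowest genes outside the score (points), with exact 95% intervals for counting error (bars) and dotted lines at 1.5-fold. The highest gene is Ptges3l at 1.56 and the lowest is Hspa1a at -2.28.

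The differences extended across the range of the score. Over deciles of the scored cells, Cst3 was at 1300 CPM in the first decile, 1663 in the fifth, 3243 in the ninth and 4530 CPM in the last, and Col2a1 was at 40226, 49239, 63782 and 69734 CPM. Clu was at 1201, 720, 196 and 139 CPM, and Mgp, the matrix Gla protein that inhibits calcification, at 12205, 9272, 4893 and 3129 CPM. Timp3 differed from these, at 170, 180, 288 and 522 CPM, with most of its difference between the last 2 deciles. The first 2 deciles had no score UMI and are ordered as in the file, and the 2450 cells without one also fill part of the third. Median UMIs also went from 7940 in the first decile to 14068.5 in the last, and their part in these profiles was not tested.

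**Figure D4:**
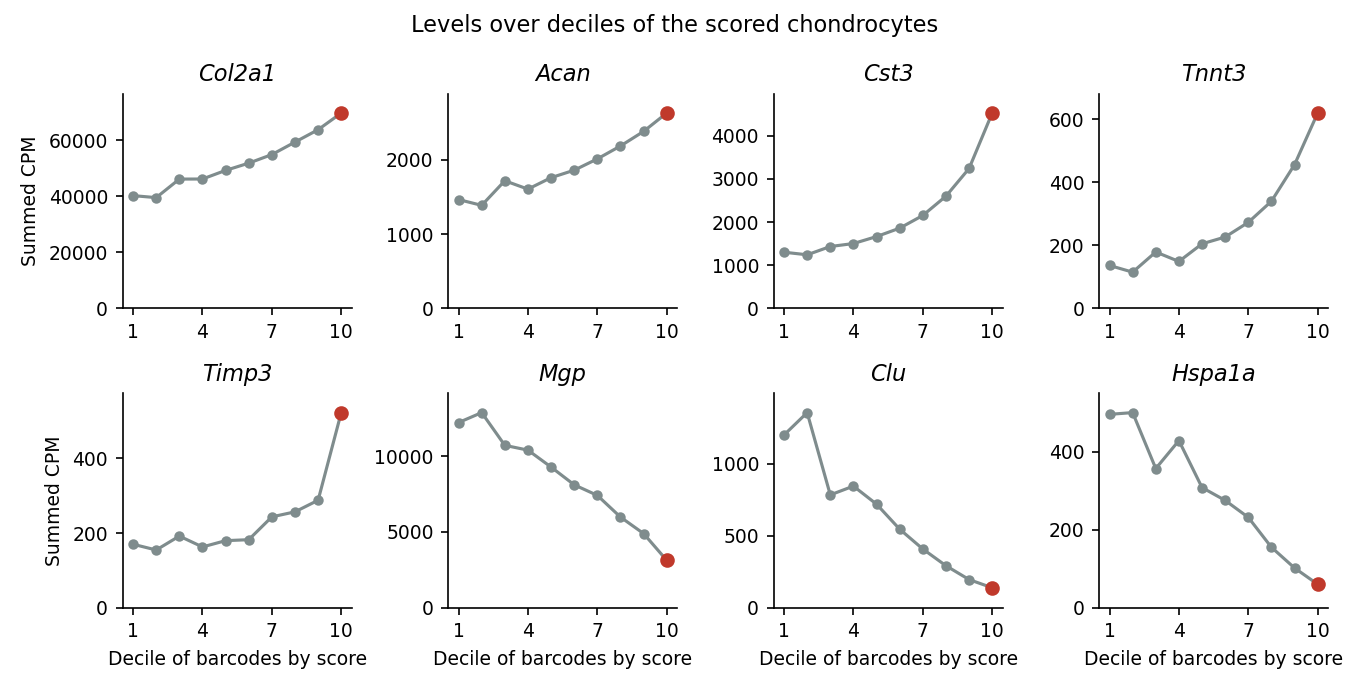
Summed CPM of 8 genes (vertical axes, each from 0) in deciles of the scored chondrocytes ordered by score (horizontal axes), with the last decile, which holds the members but 1, in red. Col2a1, Acan, Cst3 and Tnnt3 are highest and Mgp, Clu and Hspa1a lowest in the last decile, and Timp3 stands out there from the 9 others.

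Among 16 contractile genes with at least 10 CPM outside the score, 2 were at least 1.5-fold higher, 1 was lower and 13 were neither, with a median log2 ratio of 0.18 beside -0.06 over all genes. Tagln was at 98.8 against 29.6 CPM and Myl9, a regulatory light chain of myosin, at 31.5 against 10.6 CPM. Cald1, encoding the actin regulator caldesmon, was in the other direction, at 115 against 278 CPM. Vcl (446 against 338 CPM), Tpm1 (188 against 158 CPM) and Srf, encoding serum response factor (25.4 against 18.4 CPM), were within 1.5-fold. A further 9 contractile genes were under 10 CPM over all scored cells. Among them Cnn1, the smooth muscle calponin, was at 11.9 against 5.23 CPM, Mylk, the myosin light chain kinase, at 12.4 against 8.28 CPM and Synpo2 at 4.01 against 2.28 CPM. Actg2 was at 2.68 against 1.14 CPM, Lmod1 at 1.80 against 0.690 CPM and Des at 1.45 against 0.543 CPM, and Myh11 is given above. Pdlim3 was at 7.97 against 8.09 CPM, and Myocd, the smooth muscle coactivator of serum response factor, at 0.116 against 0.207 CPM from 2 UMIs in the members.

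Of 14 elastic fibre genes, 4 were higher, 1 lower and 9 neither, with a median of 0.26. The higher genes encode a scaffold and cross-linking enzymes. Lox, the lysyl oxidase that cross-links tropoelastin and collagen, was at 32.1 against 11.6 CPM, Loxl2 at 77.1 against 34.9 CPM, Mfap4, a microfibril-associated protein, at 80.9 against 32.0 CPM and Efemp2, the fibulin 4 that brings Lox to tropoelastin, at 213 against 128 CPM. Ltbp4 was lower, at 15.01 against 25.8 CPM. The fibrillin genes Fbn1 (110 against 95.4 CPM) and Fbn2 (47.4 against 38.3 CPM) were within 1.5-fold.

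The BMP pathway list had 25 genes with at least 10 CPM, of which 1 was higher, 5 lower and 19 neither, and a median of 0.01. Nog, encoding noggin, a BMP antagonist like gremlin 1, was at 47.7 against 13.9 CPM, and at 5000 UMIs was detected in 19.9% of members and 4.98% of the other cells. Chrdl2, a further antagonist below the limit of 10 CPM over all cells and singled out after its values were seen, was at 32.2 against 4.30 CPM. The ligands Bmp2, Bmp4 (5.93 against 19.7 CPM), Bmp5 (49.5 against 80.8 CPM) and Bmp7 (4.71 against 15.02 CPM) and the antagonist Nbl1 (16.5 against 44.2 CPM) were lower. The receptors and targets of the pathway with at least 10 CPM were within 1.5-fold, with Bmpr1a at 110 against 87.7 CPM and the target Id1 at 933 against 1089 CPM.

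In the Wnt list 2 of 12 genes were higher, 4 lower and 6 neither (median -0.34). The secreted inhibitor Frzb was at 247 against 122 CPM and the activator Rspo3 at 138 against 69.3 CPM, while the inhibitors Wif1 (172 against 449 CPM) and Dkk3 (3.02 against 12.3 CPM) and the pathway genes Lef1 and Nkd1 were lower. In the TGF-beta and YAP list none of 20 genes was higher and 4 were lower, namely Tgfb3, Tgfbr2, Tgfbr3 and Tgfbi (156 against 277 CPM), with a median of -0.16. Of 9 hedgehog and hypertrophy genes, Mef2c was higher (28.4 against 17.3 CPM) and Ptch1, Runx3 and Spp1 were lower. Of 14 IGF and FGF genes, Fgf2 was higher (83.4 against 55.2 CPM) and Igfbp7 (447 against 805 CPM) and Fgf18 were lower. Neither of the 2 Notch genes with enough counts was past the fold, nor was any of 6 Hox genes.

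The cartilage matrix list had 25 genes, of which 2 were higher, 6 lower and 17 neither (median 0.13). Crispld1 (679 against 344 CPM) and Scrg1 (1024 against 611 CPM) were higher. Comp (1836 against 3114 CPM), Matn1, Matn2, Cytl1, Cilp2 (10.3 against 53.2 CPM) and Prg4, the lubricin of the joint surface (37.7 against 93.0 CPM), were lower. Of 17 chondrocyte transcription factors, Scx, a tendon factor, was lower (14.7 against 24.0 CPM) and the other 16, Sox5, Sox6 and Sox9 among them, were within 1.5-fold. Among the small leucine-rich proteoglycans, Aspn, which encodes the TGF-beta binding asporin (164 against 79.5 CPM), and Epyc (1603 against 966 CPM) were higher and Prelp and Ogn lower. The basement membrane collagens Col4a1 (20.8 against 12.6 CPM) and Col4a2 (38.9 against 25.4 CPM) were higher and Col15a1 was lower. Among the integrins Itga5, the fibronectin receptor subunit, was higher (92.6 against 54.8 CPM) and the collagen receptor subunit Itga10 lower (55.7 against 84.2 CPM). When the other cells were weighted to the UMI deciles of the members, an alternative added after seeing the data, none of the basement membrane, integrin or IGF and FGF genes was 1.5-fold higher, and 1 of the cartilage matrix and 1 of the leucine-rich proteoglycan genes was.

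Genes of resting and superficial chondrocytes were low, 5 of 8 lower and none higher, with a median of -1.13. The 5 were Clu, Creb5 and, shared with lists above, Prg4, Cilp2 and Dkk3. Of 15 perichondrial and fibroblast genes 8 were lower and 1 was higher (median -0.62). The higher gene was Ly6a, encoding the progenitor surface antigen Sca-1, at 120 against 35.95 CPM, and the lower ones included Col3a1 (21.7 against 64.7 CPM), Col1a2 (317 against 553 CPM) and Prrx1 (25.7 against 48.0 CPM). Ly6a was detected at 5000 UMIs in 37.4% of members, 10.3% of the other cells and 46.4% of the 28 barcodes with endothelial or haematopoietic markers. The study counts Ly6a among its endothelial markers, so the share in these barcodes is not a background level for it. Col1a1 was limited by the rule and is not compared.

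Of 10 heat shock genes 6 were lower and none higher, with a median of -0.59. When barcodes with an Hspa1a UMI at 5000 UMIs were left out, an alternative added after seeing the data, 3 of the 10 were lower and the median was -0.44. Hspa1a is itself on the list, so part of this change follows from the removal. With the weighting to UMI deciles 4 were lower, and none of the immediate early genes was past the fold. Jun (1245 against 1959 CPM) and Jund (588 against 979 CPM) were lower among 11 immediate early genes. Hspa1a was detected at 5000 UMIs in 12.8% of members, 34.2% of the other cells and 32.1% of the 28 barcodes with endothelial or haematopoietic markers.

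**Figure D5:**
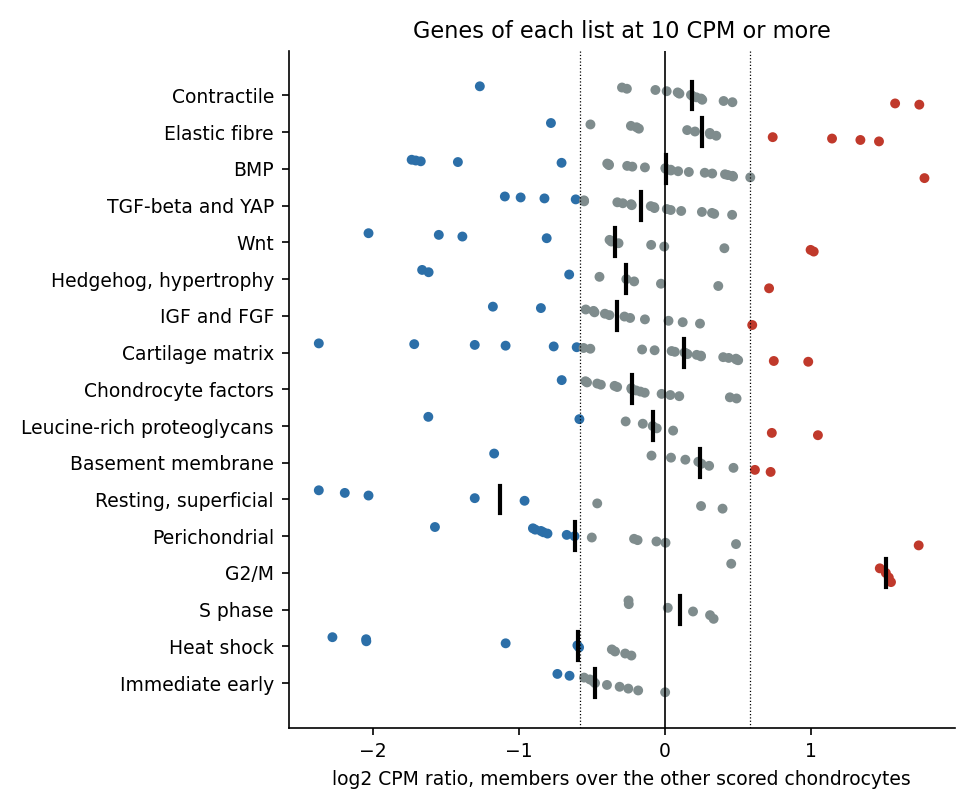
Log2 ratio of CPM in the members over the other scored chondrocytes for each gene with at least 10 CPM (points) in 17 gene lists, with the median of each list (black bars) and dotted lines at 1.5-fold. The G2/M list has the highest median, 1.51, and the resting and superficial list the lowest, -1.13.

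Genes of mitosis were higher. Top2a (26.6 against 9.10 CPM), Birc5 (27.6 against 9.56 CPM), Cdk1 (34.5 against 12.1 CPM) and Ube2c (33.3 against 12.03 CPM) made up 4 of the 5 G2/M genes with enough counts, with a median of 1.51. None of 6 S phase genes with at least 10 CPM was past the fold. The S phase genes under 10 CPM over all scored cells were all at least 1.5-fold higher except Mcm3 (10.7 against 8.20 CPM). Among them were Tyms (15.7 against 7.43 CPM), Rrm2 (13.4 against 4.87 CPM) and Uhrf1 (4.25 against 1.49 CPM). At 5000 UMIs, at least 3 UMIs of the G2/M list were found in 70 members (6.46%, 5.07% to 8.10%) and in 241 of the other cells (2.47%, 2.17% to 2.80%). With S phase genes included, the shares were 17.4% (15.1% to 19.7%) and 15.9% (15.2% to 16.6%), and without thinning they were 61.1% and 51.7%. With at least 5 UMIs, again after thinning, they were 6.74% (5.32% to 8.40%) and 2.96% (2.63% to 3.31%). The S list alone gave 14.6% and 14.4% at 3 UMIs, and 4.16% (3.05% to 5.52%) and 2.24% (1.95% to 2.55%) at 5 UMIs. These intervals cover counting error over cells of 1 library, so whether they overlap is not a test. With G2/M barcodes left out, also added after seeing the data, 1 of the 5 G2/M genes was higher and their median was 0.08. Those barcodes were left out by UMIs of the same list, so this fall follows from the removal. The 15 highest genes of the comparison all stayed at least 1.5-fold higher. With the other cells weighted to the members' UMI deciles, 4 of the 5 G2/M genes were higher and their median was 1.06.

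Genes that lie near Aoc2 on chromosome 11 were examined because Ptges3l, which had the largest ratio of the genes with at least 50 CPM outside the score, lies 89110 bases from it. Within 100000 bases of Aoc2 there were 9 genes with at least 10 CPM, and 4 of them were at least 1.5-fold higher and none lower. Over all genes the shares were 3.51% and 6.53%. Ptges3l, 1 of the 4, had led to this search, so the 4 are not read as a regional pattern. Besides Ptges3l these were Rundc1 (31.6 against 17.6 CPM), Wnk4 (45.6 against 29.4 CPM) and Gm27029 (25.8 against 7.82 CPM), all singled out after their values were seen. Gm27029 overlaps Ptges3l, so reads of the 2 may be divided uncertainly. Aoc3, a paralog of Aoc2 at a distance of 903 bases, was at 13.2 against 5.06 CPM and is likewise uncertain. The amine oxidase genes Aoc1, Maoa and Maob were under 10 CPM in both groups. Around Acta2, Fas was at 30.02 against 14.8 CPM and Stambpl1 at 14.6 against 11.6 CPM, taken up in the same way, and none of the single genes with enough counts near Grem1 and near Eln was past the fold.

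The cells that other gene scores take at the same top 10%, each of 1083 cells, were set beside the members. Each such group is 10% of all scored cells. The members shared 6 cells (0.554% of each group) with the Prg4, Clu and Cilp2 score, 8 cells (0.739%) with the Cytl1, Wif1 and Prelp score, 52 cells (4.80%) with the Runx3, Wnt5b and Ptch1 score and 69 cells (6.37%) with the Trf, Fam43a, Klf5 and Foxc2 score. Cells of the Prg4 score had 11.5 CPM of Acta2 and 11.8 CPM of Aoc2. In those of the Trf score Acta2 was at 93.5 CPM and Eln at 179 CPM, above the levels of the Prg4 score and below those of the members. Grem1 went the other way, at 11.8 CPM in the Trf score cells and 22.3 CPM in the Prg4 score cells. In cells of the Runx3 score Acta2 was at 96.0 CPM and Eln at 85.3 CPM.

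The cultured library had a different make-up of the same 5 genes. Of its 10798 deposited barcodes 4543 passed the same depth, gene and mitochondrial limits and 4499 were scored. These cells had a median of 66712 UMIs, against 10455 in the primary library, and each library was 1 sample. Acta2 was at 1224 CPM in the cultured and 126 CPM in the scored primary cells, and Grem1 at 1091 against 30.5 CPM. Eln was at 17.3 against 201 CPM, Aoc2 at 0.680 against 62.5 CPM and Prune2 at 65.1 against 164 CPM. At 5000 UMIs Grem1 was detected in 82.4% of cultured and 8.21% of primary cells, and Aoc2 in 0.445% and 13.3%. In 2578 of the 4499 scored cultured cells (57.3%) the score reached the primary threshold, beside which the primary members had 786 CPM of Eln and 275 CPM of Aoc2. Culture, library and sequencing depth cannot be told apart here.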

How the data were processed

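The authors had run Cell Ranger 7.0.0 on 10x 3′ libraries and deposited unnormalised UMI counts for each gene in each barcode. The submitters' notes name mm10, GRCm38 and GRCm39, and 21707 of 21849 gene identifiers matched GENCODE M21 on GRCm38. Primary barcodes were kept with at least 500 genes, 5000 UMIs and at most 10% mitochondrial UMIs (10959 of 11896), and 130 with Col1a1 at 0.3% or more of UMIs were left out. Counts were summed and scaled to CPM. Log2 ratios raise counts under 3 to 3, intervals are exact (Clopper-Pearson for shares), and steps were tested on simulated data. Genes named were the 5 score genes, the 15 highest and 15 lowest at 50 CPM or more, and members of 29 gene lists at 10 CPM or more. Members and lists were chosen with earlier results of these data known. Scrublet (scanpy 1.11.5) called 0 doublets automatically and had not worked, so doublets stayed in. Among members 8.03% were among the 1132 barcodes with the highest doublet scores, and 10.4% of the other cells. Cells are not replicates and no test was run. Alternatives covered TMM scaling (edgeR 4.0.16), depth, thresholds, doublets and other cell types.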

Additional observations from a re-analysis of the deposited data

How the results depend on the processing

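The 15 highest and 15 lowest genes had the same direction in all 13 alternative selections and scalings. Over these alternatives and 268 genes of the score, the highest, the lowest and the lists, 108 of 3484 log2 ratios, in 38 genes, changed sign. Among the 101 genes at least 1.5-fold apart, 1 did, Ube2c, which was -0.10 with G2/M barcodes left out, when the S phase median was -0.24 against 0.11 with all cells. The BMP median was -0.06 with at least 10000 UMIs per barcode against 0.01. Of the genes given by value, Hspa1a (-0.49) and Bmp5 (-0.53) came within 1.5-fold when barcodes with Hspa1a were left out, Epyc (0.56), Scrg1 (0.56) and Ltbp4 (-0.53) with at least 10000 UMIs per barcode, and Mef2c (0.54) with the top 20% as members. Tgfbr2, Ptch1, Fgf2, Matn1, Scx, Ogn, Col4a1, Col4a2, Itga5, Itga10, Jun, Jund and Pdgfrb also came within it under at least 1 alternative, as did Top2a, Cdk1 and Ube2c without G2/M barcodes. For Hspa1a, Top2a, Cdk1 and Ube2c the change follows from leaving out barcodes by UMIs of the same genes. The numbers of genes 1.5-fold higher and lower were 784 and 1182 with at least 1 CPM, 100 and 194 with at least 50 CPM, and 85 and 140 at 2-fold, since these choices set how many genes are counted. With the other cells weighted to the members' UMI deciles, added after seeing the data, they were 182 and 381, and with TMM scaling 301 and 443. Cycling cells with at least 5 UMIs of the S or G2/M list were 6.74% of members and 2.96% of the other cells, and with at least 10 UMIs 4.89% and 1.24%. No paired analysis was possible because the comparison lies within 1 library. Differences between animals and libraries could not be estimated.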
